A study of Homo sapiens with 8 samples.

Results

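The genes described here are the cytosolic ribosomal protein genes, the protein components of the ribosomes that translate cytoplasmic messenger RNA. Members were protein-coding genes whose symbol is RPL or RPS followed by digits and otherwise holds only A, L, X, Y or more digits, plus RPSA, RPLP0, RPLP1 and RPLP2, which gave 87 of the 58302 genes in the tables, 53 of the large subunit and 34 of the small subunit. The choice used symbols and no measured value. The libraries came from SK-Hep1, an established human cell line from a liver tumour, in a design of 2 cell lines by 4 treatments with 1 library for each of the 8 combinations. Cells made to express SLC29A2, an equilibrative nucleoside transporter, were given sorafenib and dipyridamole together, dipyridamole alone, sorafenib alone or the control treatment, and control SK-Hep1 cells were given the same 4 treatments. Sorafenib is a multikinase inhibitor used against liver cancer, and dipyridamole blocks equilibrative nucleoside transporters and phosphodiesterases. The sources used here give no dose, time or vector, nor what the control treatment held.

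Each value is an FPKM, reads per kilobase of gene model and library size, from poly(A)-selected RNA. Total reads per library, worked out from the size of 1 read in the FPKM values, were 14.07 to 16.69 M. SLC29A2 was at 1477 to 3040 FPKM in the 4 libraries of SLC29A2 cells and at 7.11 to 7.81 FPKM in the 4 libraries of control cells. Of 8 hepatocyte markers only SERPINA1 reached 1 FPKM in any library. Of 6 endothelial markers ENG was at 40.01 to 75.99 FPKM and VWF reached 1.66 FPKM, while PECAM1, CDH5, KDR and TEK stayed below 1 FPKM throughout. All 6 mesenchymal markers, VIM and FN1 among them, reached 1 FPKM, though COL1A2 and PDGFRB peaked at 2.43 and 2.73 FPKM. Of 5 epithelial markers KRT8 was at 536.5 to 1903 FPKM, KRT18 at 134.5 to 810.3 FPKM and KRT19 at 30.4 to 81.3 FPKM. EPCAM and CDH1 stayed below 1 FPKM. Of 5 leukocyte markers only CD14 reached 1 FPKM, with a peak of 2.02 FPKM. No condition had a replicate, so p-values below set each effect against the spread left between these 8 libraries after the fitted effects. That spread mixes noise with any effect that differs between conditions and is not fitted. A gene with such an effect is harder to call. Fewer cells of a kind cannot be told apart from less RNA per cell.

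Ribosomal proteins are made in nearly equal numbers, imported into the nucleolus, and assembled with ribosomal RNA into the large and small subunits. Their messenger RNAs are abundant and long-lived. Most begin with a 5′ terminal oligopyrimidine tract, a C followed by a run of C and T in the DNA, through which LARP1 and the kinase complex mTORC1 control their translation. Several members have an L-named or numbered paralogue that can replace the standard protein in the ribosome in some tissues, and several standard members have roles outside it, among them RPL5 and RPL11, which bind MDM2 and so stabilise p53.

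The annotated starts of the transcripts were searched for the tract, by the letters from the listed base onwards only. A start listed a few bases off can hide a tract, so a member without a hit may still carry one. Promoter sequences from RefSeq (GRCh38.p14) were at hand for 70 of the 87 members, each with 250 bases before and 50 bases after the annotated start. A C at the start with at least 5 C or T bases from it onwards was present in 48 of those 70 members (68.6%), against 5.14% of all 27305 genes with a promoter in the table. Among the 62 that are not paralogues it was present in 46, and among the 8 paralogues, RPL10L and the RPS4Y copies included, in 2. The lines below give 15 bases before and 15 bases from the annotated start, on the gene's own strand, with the tract in capitals where one was found. They set the 3 most abundant members that have a promoter in the table, RPL13A, RPL41 and RPLP0, above paralogues that are each placed under the standard gene, where one is shown.
RPL13A: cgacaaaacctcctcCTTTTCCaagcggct
RPL41: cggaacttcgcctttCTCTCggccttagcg
RPLP0: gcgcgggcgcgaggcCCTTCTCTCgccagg
RPL26: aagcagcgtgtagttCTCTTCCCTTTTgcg
RPL26L1, first start: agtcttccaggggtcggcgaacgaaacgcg
RPL26L1, second start: ggcggggcggcggccacaaacccgcaggca
RPL22: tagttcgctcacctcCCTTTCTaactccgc
RPL22L1: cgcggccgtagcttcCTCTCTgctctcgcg
RPS27: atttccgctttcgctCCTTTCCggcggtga
RPS27L: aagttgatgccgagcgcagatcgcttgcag
RPL36A: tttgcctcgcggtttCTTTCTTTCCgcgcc
RPL36AL: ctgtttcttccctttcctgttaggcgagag
RPL7L1: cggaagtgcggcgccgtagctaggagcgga
In this set RPL26L1, RPS27L and RPL7L1 start with a purine, and the annotated start of RPL36AL has a run of 3. These windows lie at chr19:49487593-49487622 for RPL13A, chr12:56116618-56116647 for RPL41, chr12:120201097-120201126 for RPLP0, chr17:8383179-8383208 for RPL26, chr5:172958714-172958743 and chr5:172958865-172958894 for RPL26L1, chr1:6199581-6199610 for RPL22, chr3:170870181-170870210 for RPL22L1, chr1:153990747-153990776 for RPS27, chr15:63157463-63157492 for RPS27L, chrX:101390996-101391025 for RPL36A, chr14:49620612-49620641 for RPL36AL and chr6:42879601-42879630 for RPL7L1. RPLP0, RPL26, RPL22, RPL22L1, RPS27L and RPL36AL are on the minus strand and the others on the plus strand. The motif CCGGAAG, the core bound by ETS factors, was found on either strand of the 300-base promoter in 24 of the 70 members (34.3%) and in 12.2% of all genes. TATAA on the gene's strand, starting and ending between 40 and 16 bases before the start, was found in 9 members (12.9%) and in 4.94% of all genes. The presence of such letters does not show that a factor binds there.

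Of the 87 members, 83 averaged 1 FPKM or more over all 8 libraries and were tested, 51 of the large and 32 of the small subunit. The other 4 were RPL3L and RPL10L, paralogues known from striated muscle and testis, and the pair of RPS4Y copies. RPL3L had 0 to 7 reads in a library and RPL10L had 1 read in a single library. The 83 had a median level of 528.9 FPKM, against 14.9 FPKM over all 13899 genes tested, and 27 of them were among the 100 most abundant genes. RPS2, a small-subunit protein near the messenger RNA entry, led with a mean of 2200.2 FPKM, followed by RPL41 at 2005 FPKM, RPL13A at 1968 FPKM, RPLP0 at 1896 FPKM and RPL8 at 1895 FPKM. RPL3 at 1638 FPKM, RPS18 at 1610.3 FPKM, RPS3 at 1508 FPKM, RPL4 at 1491 FPKM and RPL19 at 1195 FPKM completed the top 10. Over the 83 members the highest library was a median of 1.45 times the lowest, and 54 members stayed within 1.5 times. Among genes that averaged 100 FPKM or more, the standard deviation of log2(FPKM + 1) over the libraries had a median of 0.18 in 70 members and 0.27 in 1339 other genes.

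**Figure D1:**
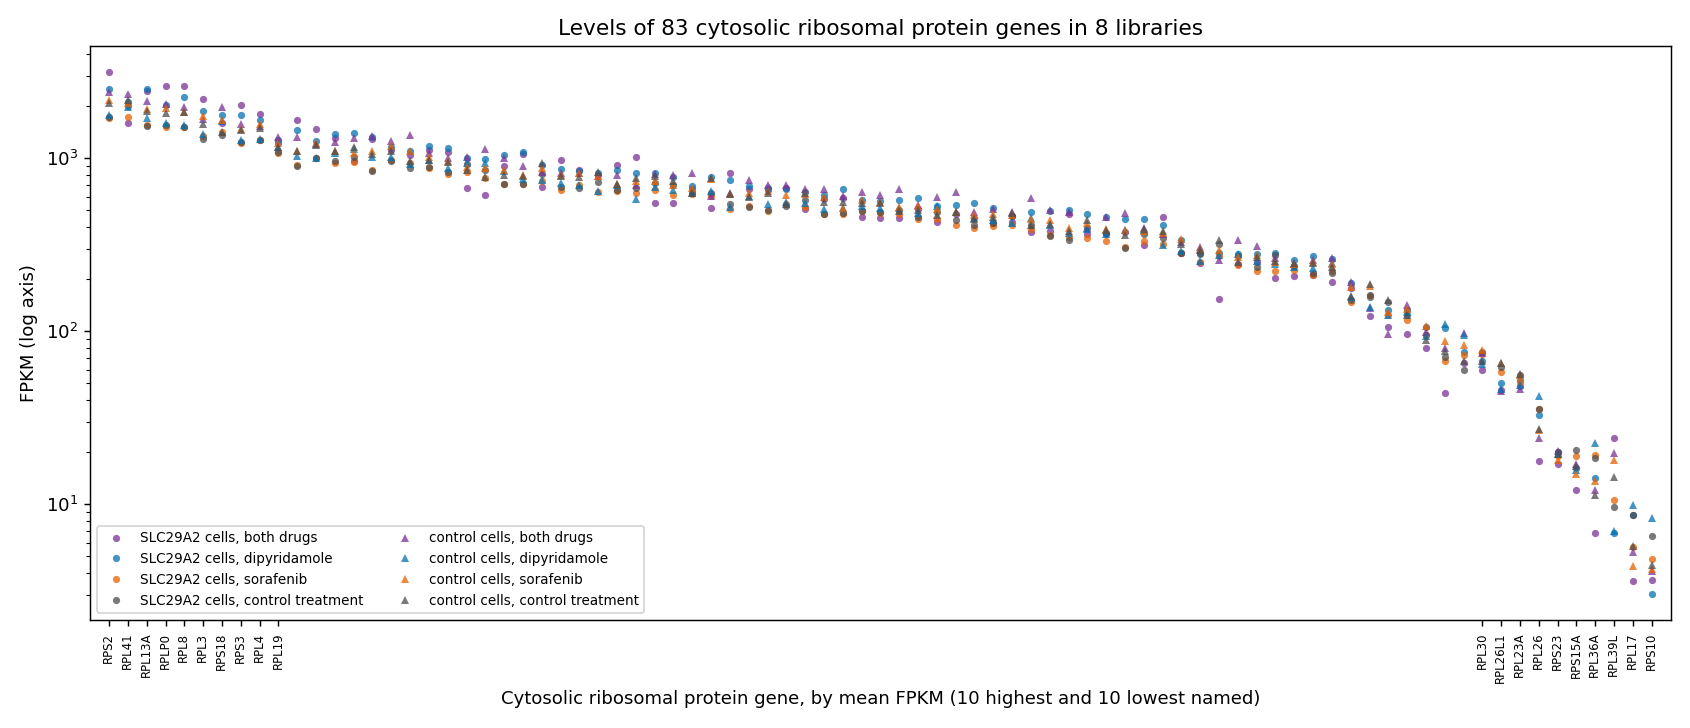
FPKM of each of the 83 members (log axis) in the 8 single libraries, ordered by mean with the 10 highest and 10 lowest named, with circles for SLC29A2 cells, triangles for control cells and colour for treatment. 70 of the 83 members average 100 FPKM or more, and the lower right holds the paralogues together with 7 standard genes below 60 FPKM, from RPL23A to RPS10.

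The summed FPKM of the members took 8.34% of all FPKM in SLC29A2 cells with both drugs, 8.50% with dipyridamole, 6.59% with sorafenib and 6.69% with the control treatment. In control cells it took 8.49% with both drugs, 6.99% with dipyridamole, 7.74% with sorafenib and 7.45% with the control treatment. In SLC29A2 cells both dipyridamole-treated libraries were thus above both others in this share, and in control cells they lay on either side of them. The sum leans on the most abundant members. The median level of the tested members in SLC29A2 cells was 477.6 FPKM with both drugs and 574.2 FPKM with dipyridamole. With sorafenib it was 474.4 FPKM and with the control treatment 488.8 FPKM, so with both drugs the median was not above both others. As a share of reads the members took 3.90% to 5.20% of a library. The genes of the mitochondrial genome, whose RNA fills part of the same total, took 3.06% and 5.43% of FPKM in the dipyridamole-treated SLC29A2 libraries and 4.84% and 6.73% in the other 2, and 2.63% and 8.05% in the dipyridamole-treated control libraries and 4.23% and 5.34% in the other 2. Their part in the members' shares was not tested. The order of the shares in SLC29A2 cells was the same over nuclear protein-coding genes alone, with 8.84% and 9.24% under dipyridamole and 7.12% and 7.38% without it. The sum over the large subunit was 1.53 to 1.59 times that over the small subunit in every library.

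The 12 pairs of libraries that differ in 1 factor show how the members moved as a group. Each pair is 1 library against 1, with no test, and the members' median is given relative to the median of all 13899 genes, since another scaling shifts both. With dipyridamole alone against the control treatment, the members' median stood 0.32 above that of all genes in SLC29A2 cells (log2 difference 0.28, against -0.04 for all genes) and 0.14 below it in control cells (-0.07, against 0.08). In SLC29A2 cells 32 of the 83 members (38.6%) were at least 1.25-fold higher in that pair, against 24% of all genes, and 3 were at least 1.25-fold lower, against 28.5%. In control cells 6 were at least 1.25-fold higher, against 31% of all genes, and 6 lower, against 20.5%. With dipyridamole added to sorafenib the members' median stood 0.06 above that of all genes in SLC29A2 cells, where 25 members were at least 1.25-fold higher (30.3% of all genes) and 10 lower (26.6%). In control cells it stood 0.09 below, with 6 members higher (40% of all genes) and 4 lower (16.1%).

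Sorafenib alone left the members near the other genes, 0.07 below in SLC29A2 cells and 0.00 from them in control cells. At 1.25-fold, 0 members were higher and 2 lower in SLC29A2 cells (18% and 11.3% of all genes), and 0 were higher and 1 lower in control cells (20.1% and 12.3%). Added to dipyridamole, it was linked to a median 0.30 below all genes in SLC29A2 cells and 0.07 above them in control cells. There 3 members were at least 1.25-fold higher and 27 lower in SLC29A2 cells (31.4% and 16.8% of all genes), and 16 higher and 6 lower in control cells (35.5% and 12%). Between the cell lines, SLC29A2 minus control, the members stood 0.07 below all genes with both drugs, 0.32 above them with dipyridamole, 0.22 below with sorafenib and 0.14 below with the control treatment. At least 1.25-fold higher in SLC29A2 cells were 8 members with both drugs (8.58% of all genes), 20 with dipyridamole (9.46%), 3 with sorafenib (9.99%) and 4 with the control treatment (10.6%). At least 1.25-fold lower were 28 with both drugs (32.3% of all genes), 4 with dipyridamole (24.6%), 10 with sorafenib (9.96%) and 3 with the control treatment (8.33%). These pairs share libraries with each other and are not independent. Size factors in place of FPKM scaling shift the members and all genes of a pair nearly alike. The distances were therefore bound to hold and are no separate check: none changed sign and each moved by at most 0.03. The plain medians changed sign in 3 of the 12 pairs. For SLC29A2 against control cells with both drugs the plain median was -0.22 on the FPKM scale and 0.02 with size factors. For both drugs against sorafenib in control cells it was 0.10 and -0.17, and for sorafenib against the control treatment in control cells 0.04 and -0.03.

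**Figure D2:**
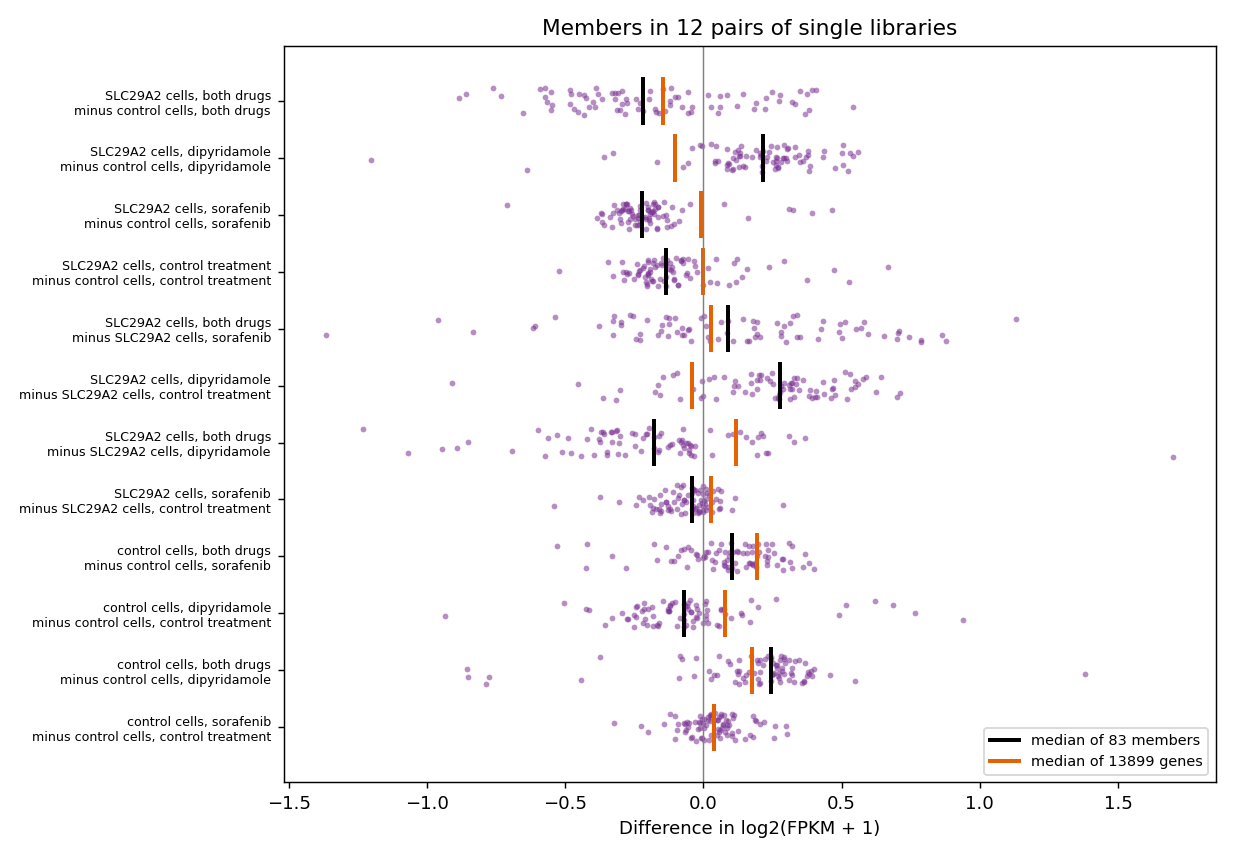
Difference in log2(FPKM + 1) for the 83 members (points) in 12 pairs of single libraries, with the median of the members in black and of all 13899 genes in orange. Under dipyridamole the members of SLC29A2 cells lie right of the orange line, both against control cells and against the control treatment. With size factors the plain medians of 3 pairs change sign. The distance between the lines moves by at most 0.03, as a factor set per library shifts both lines nearly alike.

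The most abundant members differed in which libraries were high. RPS2 was at 3155, 2516, 1717 and 1741 FPKM in SLC29A2 cells with both drugs, dipyridamole, sorafenib and the control treatment, and at 2434, 1773, 2169 and 2097 FPKM in control cells in the same order. RPL3, which lies by the peptidyl transferase centre, was at 2204, 1873, 1351 and 1294 FPKM in SLC29A2 cells and at 1679, 1385, 1747 and 1573 FPKM in control cells. For both genes the dipyridamole-treated SLC29A2 libraries were the 2 highest of that cell line, whereas in control cells dipyridamole alone gave the lowest value. RPL41, the shortest member, was at 1607, 2112, 1727 and 2007 FPKM in SLC29A2 cells and at 2355, 1989, 2079 and 2168 FPKM in control cells, and its lowest library was that of SLC29A2 cells with both drugs. Over all 83 members the highest library was most often that of control cells with both drugs, for 32 members, and SLC29A2 cells with dipyridamole, for 20. The lowest was most often that of SLC29A2 cells with both drugs or with sorafenib, for 29 members each. These counts were taken on the FPKM scale and not over all genes. Control cells with both drugs had the largest size factor, 1.20, against 0.92 to 1.02 in the other libraries. Against the control treatment in control cells, the median log2 difference of that library was 0.14 for the members and 0.25 for all genes. With size factors these were -0.20 and -0.06.

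The 3 proteins of the stalk, the flexible arm of the large subunit that recruits elongation factors, differed from each other. RPLP0, the base of the stalk, was at 2621, 2029, 1518 and 1557 FPKM in SLC29A2 cells with both drugs, dipyridamole, sorafenib and the control treatment, and at 2055, 1596, 1949 and 1839 FPKM in control cells. RPLP1 was at 669.1, 690.5, 621.0 and 633.2 FPKM in SLC29A2 cells and at 820.4, 630.5, 673.1 and 626.5 FPKM in control cells. RPLP2 was at 549.1, 817.8, 655.1 and 715.6 FPKM in SLC29A2 cells and at 812.3, 682.5, 744.2 and 793.7 FPKM in control cells. RPLP0 was thus highest, and RPLP2 lowest, in SLC29A2 cells with both drugs, and none of the 3 was called by limma in any comparison over all 8 libraries.

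Other members with well-known roles lay in the ranges given here. RPL5 lay between 493.5 and 701.2 FPKM and RPL11 between 530.5 and 699.4 FPKM, both highest in control cells with both drugs. RPS6, the substrate of S6 kinase, lay between 523.2 and 752.4 FPKM, and RPS19, mutated in Diamond-Blackfan anaemia, between 874.0 and 1363 FPKM. RPSA, also known as the laminin receptor, lay between 999.1 and 1470.1 FPKM, and RPS3, which also has a role in DNA repair, between 1219 and 2040.1 FPKM. RPL10, needed for the joining of the subunits, lay between 709.5 and 1046 FPKM. RPL38, which in mouse is needed for the translation of Hox mRNAs, lay between 202.4 and 282.6 FPKM, and RPL13A, which silences inflammatory transcripts after its release from the ribosome, between 1544 and 2532 FPKM.

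For dipyridamole, 1 of 83 members changed over both cell lines and both sorafenib states, RPL26L1, which was lower. It was at 46.0, 50.4, 45.1 and 46.2 FPKM in the dipyridamole-treated libraries (SLC29A2 cells with and without sorafenib, then control cells with and without it), against 57.9, 62.4, 65.6 and 66.0 FPKM in their untreated partners. The groups did not overlap. RPL26L1 averaged 46.9 ± 2.38 FPKM with dipyridamole and 63.0 ± 3.75 FPKM without it (SD over 4 libraries of different conditions each). Its log2 change was -0.42 ± 0.10 (SE), lower in 4 of 4 pairs, with an adjusted p of 0.0119 by limma with Benjamini-Hochberg adjustment over 13899 genes. The adjusted p was 0.0566 without the sorafenib library of control cells and 0.0814 without both dipyridamole-treated libraries of control cells. Of all genes tested 17.5% were called higher and 12.6% lower. An unadjusted p under 0.05 was found for 8 members and for 42% of all genes.

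Next in order by limma were RPL36AL with a log2 change of -0.32 ± 0.11 and an adjusted p of 0.0540, and RPL7L1 with -0.27 ± 0.10 and 0.0582. RPL36AL was at 123, 157, 136 and 139 FPKM with dipyridamole, against 160.4, 161, 183 and 187 FPKM without it, and RPL26L1 and RPL36AL were the 2 members whose groups did not overlap in the lower direction, as did those of 11.7% of all genes. In the upper direction there was none, against 13% of all genes. In the upper direction RPL12 had a log2 change of 0.31 (adjusted p = 0.0899 by limma) and RPL28 one of 0.32 (adjusted p = 0.0950), both named after their values were seen. The median log2 change of the members was 0.13, with 63 of 83 above 0, and that of all genes 0.07. With size factors the members' median was 0.03, with 49 of 83 above 0, and that of all genes -0.01. Without both dipyridamole-treated libraries of control cells, where the change rests on SLC29A2 cells alone, 17 members were called higher and none lower by limma (20.5%, against 10.9% of all genes), with log2 changes of 0.42 to 0.78. Named after their values were seen, they included RPL3, RPL4, RPL5, RPL7, RPL8, RPL10A, RPL13, RPL13A, RPL28, RPL29, RPLP0, RPS2, RPS3 and RPS16. This fit keeps 2 dipyridamole-treated libraries, both of SLC29A2 cells. Among the libraries left out is the one with dipyridamole alone, where 58 of 83 members were lower than with the control treatment. The calls are thus no separate support for a rise, and the interaction of cell line and dipyridamole called no member. Without the control-cell library given dipyridamole alone 4 were called higher, RPL12, RPL13 and RPL28 among them (14.6% of all genes), and RPL26L1 lower (10.7%). With voom on recovered reads RPL26L1 and RPL36AL were called lower (13.3% of all genes).

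For sorafenib none of the 83 members changed by limma, where 5.94% of all genes were called higher and 2.17% lower, and 4 members had an unadjusted p under 0.05 (26.6% of all genes). RPL17, at the exit of the nascent peptide tunnel, was at 3.60, 5.67, 5.29 and 4.39 FPKM in the sorafenib-treated libraries (SLC29A2 cells with and without dipyridamole, then control cells with and without it), against 8.65, 8.71, 9.84 and 5.74 FPKM in their untreated partners. It was the 1 member whose groups did not overlap with sorafenib lower, against 2.14% of all genes, and there was none with sorafenib higher, against 5.83%. It had a log2 change of -0.68 ± 0.19 (SE) and an adjusted p of 0.0621 by limma. Only 39 to 92 reads per library lay behind it. With size factors it was the 1 member called lower (3.5% of all genes), at an adjusted p of 0.0351, and without the control-cell library of the control treatment or the sorafenib library of SLC29A2 cells 0.0300 and 0.0469.

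RPL39L, known from testis and tumour cells, was at 24.3, 10.6, 19.9 and 17.9 FPKM with sorafenib, against 6.79, 9.68, 7.02 and 14.3 FPKM without it, in the same order of pairs, and the groups overlapped. It had a log2 change of 0.87 ± 0.28 (SE) and an adjusted p of 0.0830 by limma, and passed without the control-cell library of the control treatment (0.0373) or the sorafenib library of SLC29A2 cells (0.0198). RPL7L1 had a log2 change of -0.29 ± 0.10 (adjusted p = 0.0927 by limma) and RPS26 one of -0.35 (adjusted p = 0.168). RPS19 at 0.19 and RPL11 at 0.14 followed in the upper direction, with adjusted p of 0.423 and 0.482 by limma. The members' median log2 change was 0.00 and that of all genes 0.09, and with size factors these were -0.12 and -0.02.

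Between SLC29A2 and control cells none of the 83 members changed by limma. Of all genes 0.00719% were called higher, SLC29A2 itself, and 0% lower, and 1 member had an unadjusted p under 0.05 (3.93% of all genes). That member was RPS27L, a p53 target, at 65.2, 75.4, 73.3 and 59.9 FPKM in SLC29A2 cells with both drugs, dipyridamole, sorafenib and the control treatment, and at 97.5, 94.8, 82.9 and 67.2 FPKM in control cells. Its log2 difference was -0.31 ± 0.12 (SE), lower in 4 of 4 pairs, with an adjusted p of 0.965 by limma. Groups that did not overlap were found for 0 members, against 0.13% of all genes higher and 0.82% lower. RPL22L1 at -0.35 and RPS26 at -0.22 followed, and RPS9 at 0.15, RPS16 at 0.11 and RPL14 at 0.09 had the smallest p among positive differences, none with an adjusted p below 0.965 by limma. The last 3 turned negative without both dipyridamole-treated libraries of control cells. The members' median difference was -0.07 and that of all genes -0.06, and both were 0.02 with size factors.

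In the models with an interaction none of the 83 members was called by limma. The interaction of cell line and dipyridamole, which asks whether dipyridamole acted differently in SLC29A2 cells, had 0% of all genes called in either direction, and 19 members at an unadjusted p under 0.05 against 19.8% of all genes. RPL3 had a log2 interaction of 0.74 ± 0.20 (SE, adjusted p = 0.142 by limma). RPL36A had -1.25 ± 0.43 (adjusted p = 0.189 by limma) and RPS10 -0.99 (adjusted p = 0.206). The members' median was 0.19, with 59 of 83 above 0, while that of all genes was -0.14, and with size factors these were 0.40 and 0.04. The difference between cell lines seen in single pairs under dipyridamole was thus not past the threshold for any single member.

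For cell line and sorafenib the median of the members was -0.24, with 4 of 83 above 0, and that of all genes -0.03. No gene was called (0% in each direction), and none of the members, against 0.719% of all genes, had an unadjusted p under 0.05. RPS27 at -0.65, RPL38 at -0.44, RPS10 at 0.38 and RPL39L at 0.07 had the smallest p of each sign, all with an adjusted p of 1.00 by limma, and RPS10 and RPL39L changed sign when single libraries were left out. For sorafenib and dipyridamole 0.0288% of all genes were called higher and 0.0576% lower, and 3 members had an unadjusted p under 0.05, against 13.2% of all genes. RPL39L had a log2 interaction of 1.33 ± 0.34 (SE, adjusted p = 0.237 by limma), RPS9 one of 0.37 (adjusted p = 0.685), RPL22L1 one of -0.89 ± 0.28 (adjusted p = 0.278) and RPL26 one of -0.80 (adjusted p = 0.373).

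With both drugs, the difference between SLC29A2 and control cells went with the length of the coding sequence. Coding sequences of the 83 members ran from 75 to 1281 bases, with a median of 459. Spearman's rho between coding length and the log2 difference was 0.68, and Pearson's r with log2 length 0.58, across the 83 members, which come from the same 2 libraries and are not independent. Over 1312 other nuclear protein-coding genes that averaged 100 FPKM or more they were 0.11 and 0.09. Those genes were not limited to the members' range of coding length. Of the 83 members, 13 averaged below 100 FPKM, so the sets also differ in level. The 10 members under 300 coding bases had a median difference of -0.47 with 1 of them above 0, and the 26 from 300 to under 450 bases -0.40 with 2 above 0. The 21 from 450 to under 600 bases had -0.10 with 6 above 0, the 22 from 600 to under 900 bases 0.00 with 11 above 0, and the 4 of at least 900 bases 0.31 with all above 0. With size factors the 5 medians were -0.24, -0.16, 0.13, 0.23 and 0.55, so the sign of the middle groups depends on the scaling. Their order could not change, since size factors shift all members of a pair nearly alike.

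At one end stood RPS27, a zinc-finger protein of the small subunit with 252 coding bases, at 613, 991, 770 and 858 FPKM in SLC29A2 cells with both drugs, dipyridamole, sorafenib and the control treatment, and at 1131, 934, 876 and 779 FPKM in control cells, a difference of -0.88 with both drugs. RPS26, which contacts the messenger RNA at the exit channel, was at 153, 284, 273 and 321 FPKM in SLC29A2 cells and at 259.7, 275, 294 and 338 FPKM in control cells, a difference of -0.76. RPS26 has 345 coding bases, and RPL22L1, with 426, differed by -0.86. At the other end RPS9, with 582 coding bases, differed by 0.54, RPL8, with 771, by 0.41 and RPL3, with 1209, by 0.39. Under the other treatments rho between length and the difference was 0.50 with dipyridamole, -0.37 with sorafenib and -0.48 with the control treatment, and in the other genes -0.20, 0.26 and 0.21. Within SLC29A2 cells rho over the members was 0.57 for both drugs against dipyridamole and 0.54 for both drugs against sorafenib. It was 0.46 for dipyridamole and 0.34 for sorafenib, each against the control treatment. Within control cells the same pairs had 0.11, -0.25, -0.30 and -0.07. The other genes had between -0.08 and 0.13 in these pairs. The relation was thus not limited to the pairs between cell lines. Over the members the difference between cell lines with both drugs also had a rho of 0.37 with GC content, which in the other genes was 0.23. With dipyridamole the rho with GC content was 0.58 in the members, above that with length, and 0.46 in the other genes. With sorafenib and the control treatment it was -0.30 and -0.41 in the members, and -0.14 and -0.25 in the other genes. The part of GC content, RNA quality or library preparation in the length relation was not tested.

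**Figure D3:**
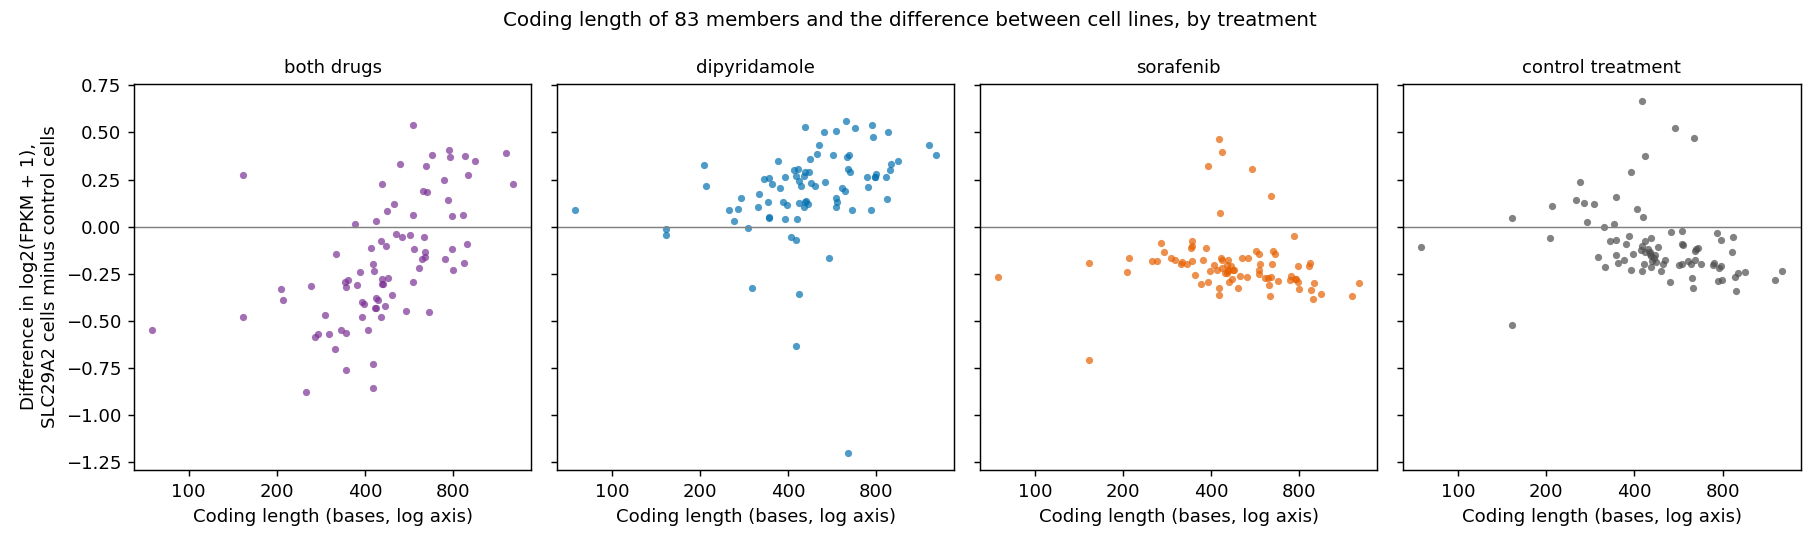
Coding length (log axis, bases) of 83 members against the log2(FPKM + 1) difference of SLC29A2 minus control cells, in 1 panel per treatment, each point 1 gene in 1 pair of libraries. The points slope up with both drugs (rho 0.68) and with dipyridamole (0.50), and down with sorafenib (-0.37) and the control treatment (-0.48).

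Of the 8 numbered L paralogues, 6 were tested and RPL26L1 was the 1 called. RPL36AL, whose protein is nearly identical to that of RPL36A, was at 618% to 1799% of RPL36A, and RPL26L1 at 109% to 259% of RPL26, per length. The other 4 were below their standard gene in every library, RPL22L1 at 21.1% to 46.5% of RPL22, RPL7L1 at 10.8% to 21.5% of RPL7, RPS27L at 6.97% to 10.6% of RPS27 and RPL39L at 1.28% to 5.67% of RPL39. RPL22L1, known in mouse to be repressed by RPL22, was at 43.9, 104, 67.5 and 71.1 FPKM in SLC29A2 cells with both drugs, dipyridamole, sorafenib and the control treatment, and at 80.5, 109.8, 87.3 and 76.6 FPKM in control cells. RPL22 itself stayed between 207.9 and 258.7 FPKM. RPL7L1 was at 106, 133, 125 and 148 FPKM in SLC29A2 cells and at 96.1, 125, 129 and 151 FPKM in control cells, lowest with both drugs in each cell line. RPL39L was highest in the libraries given both drugs, with 288 reads in SLC29A2 cells and 214 in control cells, and lowest with dipyridamole alone, with 79 and 71 reads. Paralogues that are near copies can share reads, so a split between RPL36A and RPL36AL, or RPL26 and RPL26L1, is uncertain.

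**Figure D4:**
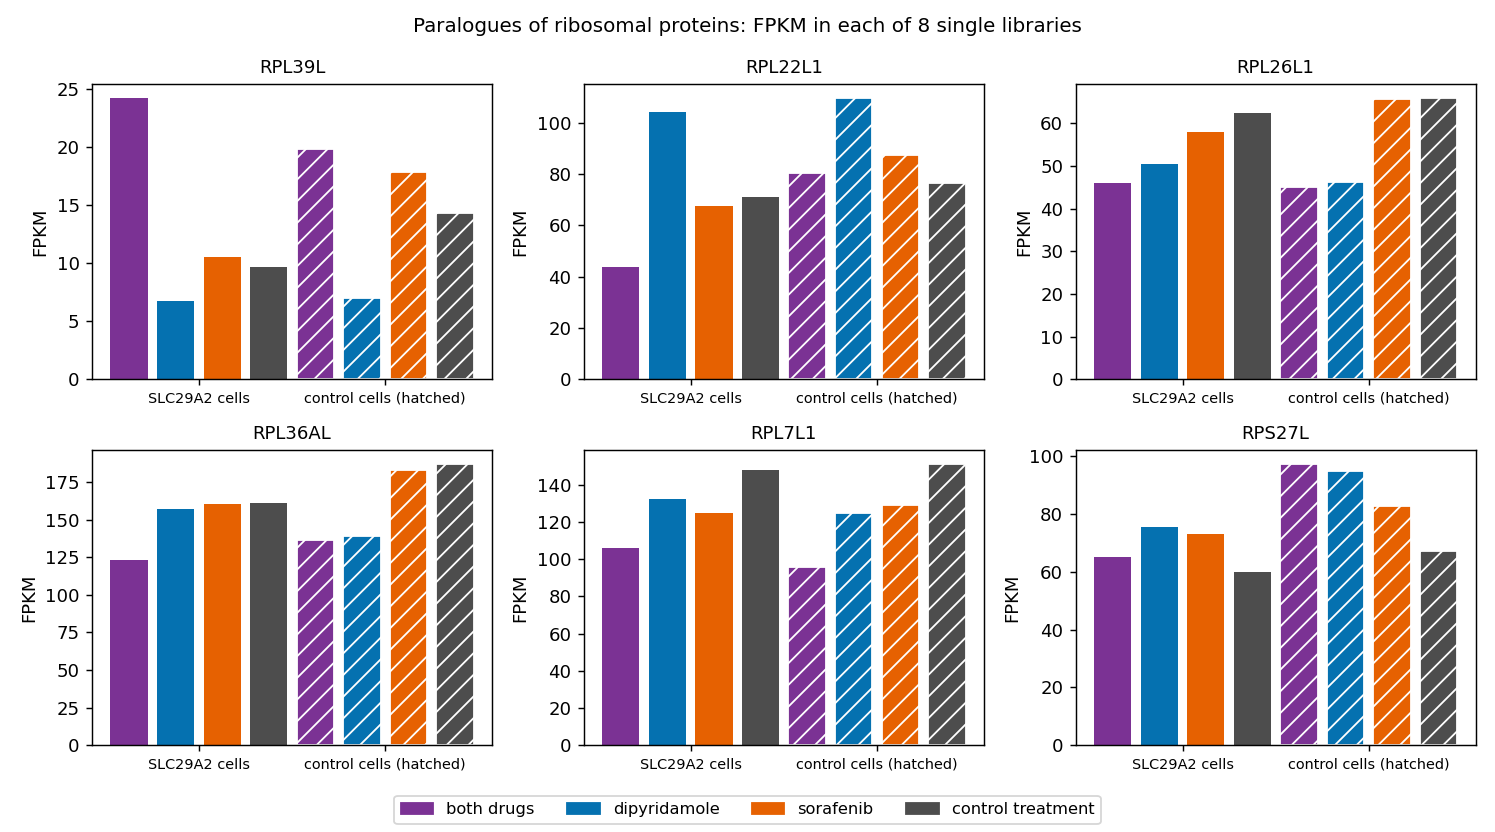
FPKM of the 6 tested paralogues in the 8 single libraries, as bars from 0, with control cells hatched. RPL26L1 is at 45.1 to 50.4 FPKM in the dipyridamole-treated libraries and at 57.9 to 66.0 FPKM in the others, and RPL39L is tallest with both drugs in SLC29A2 cells.

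The 5 most variable members were RPL39L, with a standard deviation of log2(FPKM + 1) of 0.64 over the libraries, RPL36A with 0.50, RPL17 with 0.44, RPL22L1 with 0.41 and RPS10 with 0.39. RPL36A was at 6.85, 14.1, 19.2 and 18.5 FPKM in SLC29A2 cells with both drugs, dipyridamole, sorafenib and the control treatment, and at 12.03, 22.5, 13.6 and 11.3 FPKM in control cells. RPS10, part of the small-subunit head, was at 3.66, 3.04, 4.85 and 6.57 FPKM in SLC29A2 cells and at 4.13, 8.29, 4.23 and 4.46 FPKM in control cells. RPS10 and RPL36A were highest in control cells with dipyridamole, where RPS2 and RPL3 were low.

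The lowest 10 of the 83 tested members were RPS10 at a mean of 4.90 FPKM, RPL17 at 6.49, RPL39L at 13.8, RPL36A at 14.8, RPS15A at 16.5, RPS23 at 19.2, RPL26 at 30.3, RPL23A at 51.8, RPL26L1 at 54.9 and RPL30 at 70.1 FPKM. The standard genes among them encode proteins that each ribosome holds, as do those of the abundant members, but their listed levels sit far below the rest. In GENCODE 29 other genes on the same strand cover 39.4% of the exonic bases of RPS10, 32.7% of RPL17, 14.3% of RPL26 and 8.40% of RPL36A, and the read-through genes RPS10-NUDT3, RPL17-C18orf32 and RPL36A-HNRNPH2 were listed at 0 in all 8 libraries. RPS2 with 25.6% and RPL13A with 17.3% also overlap other genes and were abundant. How the counting treated such reads is not stated, and its part in these levels was not tested.

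The same genes stood apart in their profile. Over the 8 libraries each member's log2(FPKM + 1) had a median Pearson r of 0.70 with the mean of the other members, 24 of them above 0.8, as a description of libraries that share their scaling. For 9 members r was below 0, namely RPS10 at -0.59, RPL36A at -0.36, RPL26 at -0.30, RPL26L1 at -0.30, RPL7L1 at -0.29, RPS15A at -0.24, RPL23A at -0.12, RPL17 at -0.05 and RPL36AL at -0.02. Of these, 7 are among the 10 least abundant members just named. Pseudogenes named after a member, of any pseudogene type, numbered 1144. Of these 391 had a value above 0, and their summed FPKM was 1.18% of that of the members. RPL23A had the most, 91, which summed to 36.8 FPKM beside 51.8 FPKM for RPL23A itself. The largest sums were those of RPS2, 258.5 FPKM beside 2200.2 FPKM, and of RPL9, 123.6 FPKM beside 236.0 FPKM.

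Beside the members stand genes that work with them. FAU, which encodes a ribosomal protein fused to a ubiquitin-like protein and falls outside the naming rule, lay between 70.0 and 104 FPKM and was not called by limma in any comparison. Of 19 other mRNAs known to carry a 5′ terminal oligopyrimidine tract that were tested (20 listed), 1 rose with dipyridamole and 2 fell by limma, where 17.5% of all genes were called higher and 12.6% lower, and their median log2 change was 0.05, against 0.07 for all genes. EIF2S3, a subunit of the initiation factor eIF2, rose by a log2 change of 0.33 (adjusted p = 0.0404 by limma), and HNRNPA1, a splicing factor, had -1.04 ± 0.13 (SE, adjusted p = 0.000701) and VIM, vimentin, -0.45 (adjusted p = 0.0202). Of 12 tested genes of mTORC1 and LARP1 (13 listed), 4 rose with dipyridamole and 1 fell by limma, beside the same shares of all genes, with a median of 0.13. TSC1 rose by 1.08 (adjusted p = 0.00135) and TSC2 by 0.35 (adjusted p = 0.0385), both inhibitors of mTORC1, as did MLST8, a subunit, by 0.76 (adjusted p = 0.0126) and EIF4EBP1, a repressor of translation that mTORC1 inactivates, by 0.82 (adjusted p = 0.0166, all by limma). RPS6KB1, S6 kinase, was the 1 that fell, at -0.34 (adjusted p = 0.0450 by limma).

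Of 12 chaperones and importers of ribosomal proteins, 3 fell with sorafenib by limma, namely GRWD1 at -0.46 (adjusted p = 0.0468), BCCIP at -0.37 (adjusted p = 0.0476) and AAMP at -0.38 (adjusted p = 0.0490), which are chaperones of newly made ribosomal proteins. The list's median with sorafenib was -0.15, against 0.09 for all genes, of which 2.17% were called lower. The importins IPO7 at -0.53 (adjusted p = 0.00511 by limma) and IPO5 at -0.62 (adjusted p = 0.00652) fell with dipyridamole, where 12.6% of all genes were called lower, and the list's median was -0.09. Of the 78 ribosomal proteins of the mitochondrion, 3 rose and 7 fell with dipyridamole by limma, against 17.5% and 12.6% of all genes, with a median of -0.13, against 0.07 for all genes. With sorafenib 1 rose, against 5.94% of all genes. None of these genes was called by cell line or by an interaction. The genes outside the members whose profile over the 8 libraries was most like the mean of the members, by Pearson's r, were NACA at 0.95, NUDT4 at 0.94, SOX12 at 0.94, COPS7A at 0.92 and CCDC28A at 0.92.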

How the data were processed

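RNA sequencing of 8 SK-Hep1 libraries was deposited by the authors as 1 FPKM table per library. Per the submitters' processing notes, TopHat2 2.0, HTSeq 0.6.1, edgeR and build GRCh38.p12 were used, with no role stated. Strand is not stated. Symbols, coding lengths and exons came from GENCODE 29. Reads were recovered from FPKM steps: 93.61% of values were whole multiples at a tolerance of 0.01, for 97.69% of expressed genes.

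Here limma 3.58.1 (R 4.3.3) fitted cell line, sorafenib and dipyridamole to log2(FPKM + 1), which understates changes of low genes, over the 13899 genes that averaged 1 FPKM or more, with a variance trend on the mean; tests were two-sided, adjusted after Benjamini and Hochberg, at a threshold of 0.05. Each interaction was added singly. Library pairs used a fold of 1.25 with no test. Scripts used Python 3.11.15, pandas 2.3.3, numpy 2.4.6 and matplotlib 3.10.9. The fit was also run on simulated reads with known changes under sorafenib alone and no interaction. That setting does not show how the fit performs on these libraries. Named members were the 10 highest and 10 lowest by mean, those called (or, where none was, those of smallest p in each direction, 3 for each main effect and 2 for each interaction), the 5 most variable, paralogues, stalk proteins and members with known roles. Results of some genes are not reported here by name. Members and lists were chosen with earlier results of these data known.

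Alternatives were a pseudocount of 0.1, no filter, size factors, equal sums over other nuclear protein-coding genes, voom on the recovered reads, each library left out, and both dipyridamole-treated libraries of control cells left out.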

Additional observations from a re-analysis of the deposited data

How the results depend on the processing

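Of 338 values of 25 named results under 14 alternatives for each drug or cell line and 13 for each interaction, 320 kept their direction and side of the threshold, 11 changed direction, 5 newly passed and 2 no longer passed. For dipyridamole the 1 member called became 17 without both dipyridamole-treated libraries of control cells, 2 with voom on recovered reads, and 0 to 5 with single libraries left out (0 without the sorafenib library and 5 without the dipyridamole library of control cells). RPL26L1 was called in 12 of 14 alternatives. For sorafenib, 0 became 1 with size factors, and 0 to 2 with single libraries left out. For cell line and the interactions the count was 0 under every alternative run. The members took a median of 7.60% of FPKM over the libraries, 4.58% of recovered reads and 8.18% of the FPKM of nuclear protein-coding genes. Without both dipyridamole-treated libraries of control cells the cell line differences of RPS9, RPS16 and RPL14 were -0.22, -0.17 and -0.16, and without the control-cell dipyridamole library those of RPS16 and RPL14 were -0.012 and -0.013, with ranges up to 0.19 and 0.20 over single libraries left out. The cell line by sorafenib interaction ranged from -0.22 to 0.97 for RPS10 and from -0.71 to 0.84 for RPL39L over libraries left out, with negative values of -0.22 and -0.15 for RPS10 and of -0.54, -0.050, -0.22 and -0.71 for RPL39L. The cause of these changes was not tested. No paired analysis was possible because each condition had 1 library, so that replicate numbers pair nothing. The pairs of libraries that differ in 1 factor are matched on the other factors, which the additive model holds. Depth limits the low members: RPS10 had 35 to 83 reads and RPL17 39 to 92 reads per library, and these limits cover counting error only.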
